A study of Mus musculus with 8 samples.

Results

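Glycolysis and hypoxia genes were described here as 32 genes, found by symbol among the 16418 rows of the deposited normalized expression table. All 32 had a row. By role they were 2 glucose transporters, 10 genes of upper glycolysis, 5 of lower glycolysis, 3 that set the fate of pyruvate, 3 for the hypoxia-inducible factor (HIF) and its oxygen sensors, and 9 HIF target genes. Poly(A) RNA had been sequenced from naive T cells of mouse spleen and lymph node, sorted as CD3+ and CD4+, without CD25 and with low or absent CD44. All 8 samples had the genotype Satb1fl/fl x CD4-CreERT2wt/+, that is, loxP-flanked alleles of Satb1, a chromatin organiser of T cells, and a Cre recombinase driven by CD4 sequences that acts only after tamoxifen. The 4 KO samples had received tamoxifen and the 4 WT samples had not, so the drug and the intended deletion cannot be told apart, and Cre was carried by both groups. The labels give no age, dose or interval, and do not say that the samples were separate animals, so the p-values below measure the spread between these samples, which may be technical.

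Glycolysis splits glucose into pyruvate in the cytosol. Transporters bring glucose in, hexokinase traps it as glucose phosphate, phosphofructokinase commits it to the pathway, and the lower enzymes harvest ATP and NADH. Pyruvate is then either reduced to lactate by lactate dehydrogenase or oxidised in mitochondria by pyruvate dehydrogenase, which the pyruvate dehydrogenase (PDH) kinases switch off. HIF is degraded when prolyl hydroxylases sense oxygen and, when stable, raises many genes of both sets. Resting naive T cells are known to use little glucose, and activation raises glycolysis strongly.

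Libraries held 7544075 to 9253620 counted reads in KO and 5227758 to 21998174 in WT. Levels are given as CPM, that is, reads scaled to the library total, with TMM factors that allow for library composition. The targeted gene Satb1 averaged 909.9 ± 87.2 CPM with tamoxifen (KO) and 1033 ± 41.4 CPM without it (WT; SD, n = 4 each), and its log2 fold change of -0.18 missed the threshold (adjusted p = 0.0582 by the edgeR quasi-likelihood test), with 3 of 4 KO libraries below all of WT. Sample_2908_KO, at 1032 CPM, lay inside the WT range of 987 to 1083 CPM, and the other KO libraries had 840 to 913 CPM. The Satb1 difference passed in 5 of 17 alternatives, with adjusted p from 0.00152 (without Sample_2908_KO) to 0.216 over all of them. The name KO is therefore used for the treated group only, with no statement that the transcript was lost. The 7 markers of naive CD4 T cells reported here summed to 5097 to 5708 CPM in KO and 5396 to 5808 in WT, with 1 higher (Il7r) and 3 lower (Cd4, Ccr7 and Tcf7). Markers of activated or cycling T cells summed to 184 to 208 CPM in KO and 199.6 to 223 in WT, with 1 of 9 tested, Cd44, lower. The 8 regulatory T cell markers summed to 134 to 211 CPM in KO and 70.1 to 85.4 in WT, most of the gap coming from Foxp3 at 93.4 ± 27.1 against 8.41 ± 1.20 CPM (log2 fold change 3.45, edgeR adjusted p = 0.000881). Without Foxp3 the other 7 summed to 74.3 to 98.2 CPM in KO and 62.0 to 75.7 in WT. Of these Tnfrsf18 was higher (edgeR adjusted p = 0.00851), Nrp1 had a lower mean in KO without passing (-0.87, adjusted p = 0.0952), and Lrrc32 was without a read in KO. CD8 T and NK cell markers summed to 65.7 to 70.8 against 77.4 to 85.9 CPM, with Klrd1 lower. B cell, platelet and erythroid sums stayed at or under 6.13 CPM in every library, and 10 handling stress genes summed to 487 to 959.5 CPM in KO and 705 to 971 in WT. Myeloid markers summed to 14.7 to 22.7 against 9.72 to 39.0 CPM, highest in Sample_2911_WT. The part of these differences in the results below was not tested, and in bulk RNA a change in the number of cells of a type and a change in RNA per cell cannot be told apart.

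Few genes of the pathway differed enough between the groups to pass the test. Of the 32 genes, 31 had enough reads to be tested and Hk2 did not. At an adjusted p under 0.05 (edgeR, adjusted over all 11772 tested genes), 2 of the 31 passed: Slc2a3 rose and Pdk1 fell. Over all tested genes 6.39% passed, so 2 of 31 (6.45%) was near the background. By direction, 3.98% of all tested genes were higher and 2.41% lower. At an unadjusted p under 0.05 there were 7 genes, Slc2a3, Aldoc, Eno1, Ldha, P4ha1 and Ddit4 with higher means in KO and Pdk1 with a lower one. That is 22.6% of the members against 18.0% of all tested genes, and of the latter 9.8% were higher in KO. KO and WT libraries did not overlap for 4 members (Slc2a3, Pfkm, Pdk1 and Ddit4), against 11.1% of all tested genes. The median log2 fold change of the 31 was 0.09, with 20 above 0 and 11 below, and that of all tested genes was -0.00047. The count of members past the threshold rose to 4 with DESeq2, to 5 with no count filter and to 5 without Sample_2908_KO. Over all genes the main fit gave 752 calls and the 17 alternatives 481 to 895. The share of all genes under each setting is not given here, so these member counts cannot be set against 6.39%. Eno1 and Ddit4 were added in each of the settings named, with Ldha when no filter was used and P4ha1 without Sample_2908_KO.

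**Figure D1:**
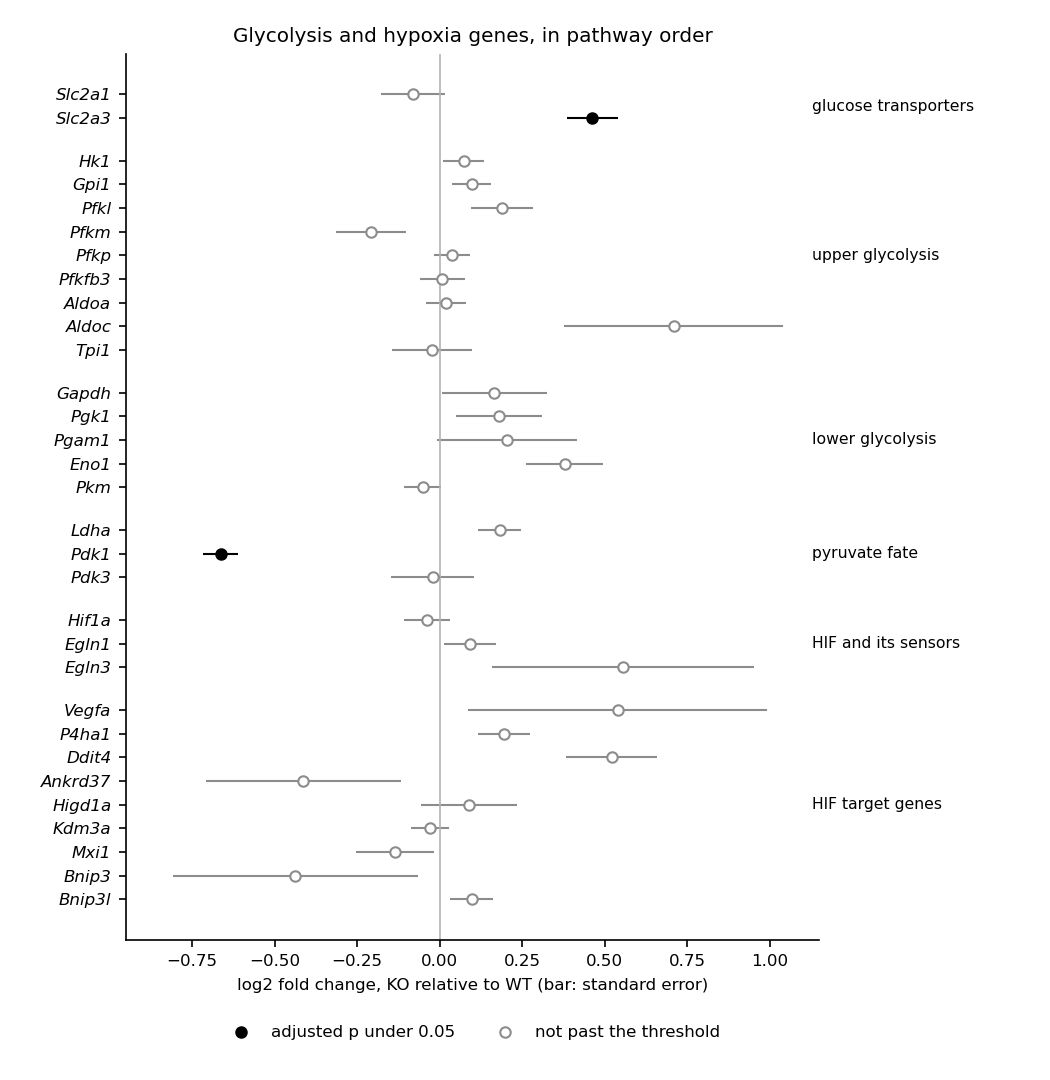
Log2 fold change of KO relative to WT for the 31 tested genes, in pathway order, with bars for the standard error; filled points passed an adjusted p of 0.05 (edgeR). Slc2a3 (0.46) and Pdk1 (-0.66) are the filled points, and the widest bars belong to genes with few reads such as Vegfa, Egln3 and Bnip3.

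Promoter letters are shown for 3 members: Pdk1, the gene that fell, and Ldha and Ddit4, HIF targets whose means were higher in KO. They are the bases upstream of the RefSeq start on GRCm38.p6, read 5′ to 3′ in the direction of the gene, and capitals mark the core of the hypoxia response element, ACGTG or GCGTG, on either strand. The windows are chr2:71872974-71873223 on the plus strand, chr7:46845554-46845803 on the plus strand and chr10:59951835-59952020 on the minus strand, the last stopping where the annotated transcript starts.
Pdk1: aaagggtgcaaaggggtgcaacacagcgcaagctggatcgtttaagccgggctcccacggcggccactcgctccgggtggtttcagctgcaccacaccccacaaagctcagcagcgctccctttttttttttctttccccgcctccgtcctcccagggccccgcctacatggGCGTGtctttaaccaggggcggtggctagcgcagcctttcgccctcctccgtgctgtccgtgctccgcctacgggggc
Ldha: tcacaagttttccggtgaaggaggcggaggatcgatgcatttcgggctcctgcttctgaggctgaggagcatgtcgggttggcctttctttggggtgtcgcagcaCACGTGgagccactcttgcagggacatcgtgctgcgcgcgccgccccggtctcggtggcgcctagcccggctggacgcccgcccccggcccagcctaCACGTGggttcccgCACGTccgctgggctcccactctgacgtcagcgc
Ddit4: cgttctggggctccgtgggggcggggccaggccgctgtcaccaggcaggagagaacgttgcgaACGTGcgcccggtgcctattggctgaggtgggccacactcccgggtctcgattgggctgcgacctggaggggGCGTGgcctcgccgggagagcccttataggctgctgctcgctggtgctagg

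The Pdk1 window held 1 core match, the Ldha window 5 and the Ddit4 window 2. In Ldha, 2 stretches were the full E-box CACGTG, the site of MYC and related factors, and each of these counts as 2 overlapping core matches, 1 per strand. RefSeq promoters were matched for 30 of the 32 genes, all but Slc2a3 and Bnip3l. A core match lay in the 250 bases upstream of 23 of the 30 (76.7%), in 58.1% of 8619 tested genes and in 38.6% of all 27025 promoters. The median GC content was 63.4%, 60.0% and 52.0% in the same order, and these short motifs hold CG. CACGTG lay in 13.3%, 8.79% and 6.04%. These matches describe letters and not binding. Pdk1, which fell, and Ddit4, whose higher mean in KO did not pass the threshold, each held a core match. A link between matches and changes in level was not tested.

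In length-scaled terms (CPM per kilobase of exon) the members spanned a wide range in WT cells. Ldha stood highest at 114, followed by Aldoa at 95.6, Ddit4 at 84.7, Pkm at 80.5 and Pdk1 at 71.3. In this order Ddit4 and Pkm did not differ beyond their spread, since their SDs were 10.8 and 5.69. Hk2, the hexokinase known to be induced on activation, stood lowest at 0.143, under Vegfa at 0.242, Egln3 at 0.390, Aldoc at 0.651 and Bnip3 at 0.924. In KO, by the same lengths, Ldha remained first at 129.6, Ddit4 stood at 122 above Aldoa at 96.7, and Pdk1 stood at 45.1, below Eno1 at 48.5. For Pkm the merged exons spanned 5001 bases and the longest transcript 2432 bases, while both were 1755 bases for Ddit4. The order of genes here, and the shares and per-length rankings given below, therefore depend on the choice of length. An order by transcript length was not computed.

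**Figure D2:**
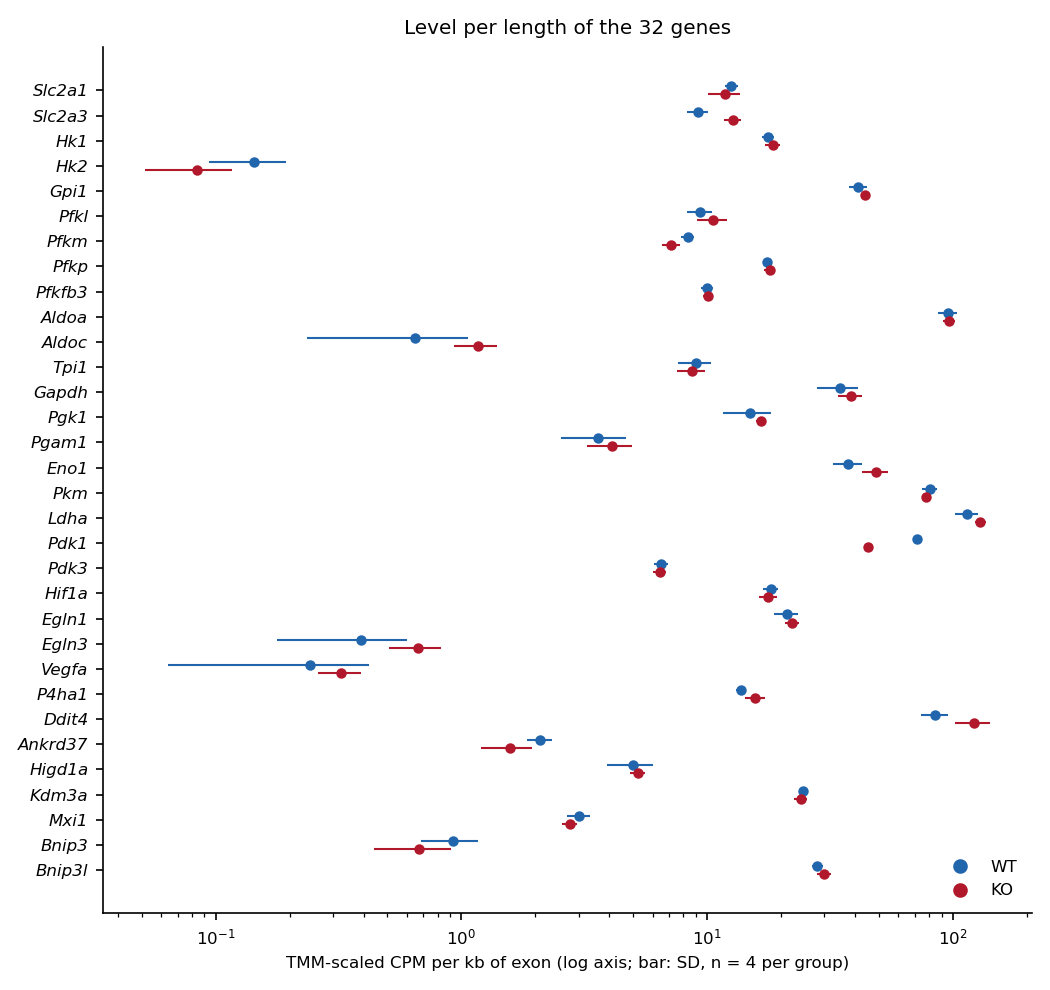
Level per length of the 32 genes on a log axis (TMM-scaled CPM per kilobase of exon), with the mean and SD of 4 libraries per group. Ldha, Aldoa, Ddit4 and Pkm lie at the right end and Hk2 at the left end in both groups, and the KO and WT points are clearly apart for Pdk1.

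Glucose enters naive T cells through the facilitative transporters encoded by Slc2a1 (GLUT1) and Slc2a3 (GLUT3). Slc2a3 (ENSMUSG00000003153.10, chromosome 6, 122727809 to 122801640, minus strand, mm10) stood at 91.6, 97.2, 81.7 and 98.6 CPM in the 4 KO libraries and at 72.8, 57.1, 69.1 and 67.8 CPM in the 4 WT libraries. Every KO library lay above every WT library. The means were 92.3 ± 7.67 and 66.7 ± 6.72 CPM (SD, n = 4 each), a log2 fold change of 0.46 (SE 0.08, edgeR adjusted p = 0.000118), or 1.38-fold. Slc2a1 (ENSMUSG00000028645.11, chromosome 4, 119108711 to 119137983, plus strand) did not pass, with 37.2, 35.6, 45.2 and 48.2 CPM in KO and 45.0, 46.7, 44.3 and 40.3 CPM in WT. Its groups overlapped, with 2 KO libraries below all of WT and 1 above (log2 fold change -0.08, SE 0.10, edgeR adjusted p = 0.733).

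The balance between the transporters was examined as the share of Slc2a3 in the length-scaled sum of both. It was 54.3, 56.9, 46.7 and 49.7% in KO libraries and 43.9, 37.2, 43.0 and 44.8% in WT libraries. All KO shares exceeded all WT shares, with means of 51.9% ± 4.58 and 42.2% ± 3.45 (SD, n = 4 each). The exact 2-sided permutation test gave p = 0.0286, the smallest that 70 relabellings allow, and 0.1 after Benjamini-Hochberg adjustment over the 7 shares computed. The summed level of both transporters was 24.6 ± 1.88 in KO and 21.8 ± 0.918 in WT (CPM per kilobase).

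None of the 9 tested genes of upper glycolysis passed the threshold. Hk1 far outweighed Hk2. Hk1, the hexokinase of most tissues, traps glucose as glucose phosphate and had 158 ± 11.4 CPM in KO and 151 ± 8.38 CPM in WT (log2 fold change 0.07, edgeR adjusted p = 0.6). Its share of the Hk1 and Hk2 level was 99.6% ± 0.164 in KO and 99.2% ± 0.254 in WT. Hk2 had 53 reads in all 8 libraries together, from 0.219 to 1.26 CPM, too few for the test. Gpi1, the isomerase of the next step, stood at 286, 284, 284 and 282 CPM in KO and at 278, 269.6, 233 and 283 CPM in WT. Its KO libraries lay within a narrow band, and Sample_2914_WT stood below the rest.

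Phosphofructokinase is a tetramer built from the liver, muscle and platelet subunits encoded by Pfkl, Pfkm and Pfkp. Pfkm had 20.9, 24.996, 25.6 and 24.2 CPM in KO and 27.8, 29.6, 25.7 and 28.4 CPM in WT. Its groups did not overlap, although the highest KO value and the lowest WT value nearly met, and the difference missed the threshold (log2 fold change -0.21, SE 0.11, edgeR adjusted p = 0.296). Pfkl pointed the other way without passing (log2 fold change 0.19, edgeR adjusted p = 0.292), from 61.1 to 84.2 CPM in KO and 54.8 to 70.8 CPM in WT. Pfkp, at 241 ± 12.4 and 234 ± 8.81 CPM, had a log2 fold change of 0.04. The share of Pfkl in the sum of the 3 subunits was 29.5% ± 3.08 in KO and 26.6% ± 2.04 in WT (exact 2-sided permutation p = 0.171, adjusted p = 0.171). Summed over the subunits the step stood at 101% of WT. Pfkfb3, which makes the fructose bisphosphate that activates phosphofructokinase, gave a log2 fold change of 0.01 (adjusted p = 0.972, edgeR).

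Aldolase cleaves the phosphorylated hexose, and Aldoa carried nearly all of its transcript. Aldoa stood at 279.7, 262, 297 and 287 CPM in KO and at 309, 279, 251 and 274 CPM in WT, with overlapping groups and a log2 fold change of 0.02 (SE 0.06, edgeR adjusted p = 0.913). Aldoc, the brain-type form, was rare, with 237 reads in all. It had 4.52, 3.07, 3.24 and 4.42 CPM in KO and 1.16, 1.08, 2.27 and 3.98 CPM in WT. In this gene 3 WT libraries lay below all of KO and Sample_2915_WT lay among them, and the log2 fold change of 0.71 (SE 0.33) reached an unadjusted p of 0.0408 in edgeR but an adjusted p of 0.245. Tpi1, the triose phosphate isomerase, gave a log2 fold change of -0.02 (adjusted p = 0.955, edgeR).

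Lower glycolysis also gave no call in 5 tested genes, where 6.39% of all tested genes passed. The log2 fold change was above 0 for 4 of the 5, and for 5874 of all 11772 tested genes. Eno1, the enolase of most tissues, differed most among them, with 269, 221, 298 and 256 CPM in KO and 219, 227, 167 and 196 CPM in WT. Sample_2908_KO lay inside the WT range and the other 3 KO libraries lay above it. The log2 fold change was 0.38 (SE 0.12, edgeR adjusted p = 0.116). Without Sample_2908_KO it was 0.45 (edgeR adjusted p = 0.0313) and without Sample_2914_WT 0.29 (adjusted p = 0.0465). Over all alternatives the adjusted p of Eno1 ran from 1.08e-07 to 0.26.

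Pkm, the pyruvate kinase gene, was the highest of the lower steps in length-scaled level. It had 369, 387, 403 and 393 CPM in KO and 434, 416, 368 and 392 CPM in WT. The ranges overlapped, and the log2 fold change was -0.05 (SE 0.06, edgeR adjusted p = 0.708). Gapdh, Pgk1 and Pgam1, which carry the triose through to phosphoglycerate, had log2 fold changes of 0.17, 0.18 and 0.20, with edgeR adjusted p from 0.521 to 0.683.

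Sample_2914_WT, the deepest library, was the lowest of the 4 WT libraries for 14 of the 26 members with a mean of at least 5 CPM (53.8%), against 21.6% of the 9549 genes at that level. For Gapdh it had 107 CPM where the other WT libraries had 139 to 167 CPM, and for Pgk1 24.0 against 31.4 to 39.7 CPM. Without it the log2 fold changes of Gapdh and Pgk1 were 0.03 and 0.01. Reads of 75 bases cannot always be placed in some of these genes. Identical windows of that length in other annotated genes made up 67.5% of the longest Pgk1 transcript, 65.4% of Eno1, 40.6% of Pgam1, 22.8% of Gapdh (shared with 114 other genes) and 19.6% of Pkm. Eno1b, the main copy of Eno1, was given 12 reads in all, against 17273 for Eno1. These levels are uncertain to the extent that the counter split or dropped shared reads. Pkm also shared 767 exonic bases with Gm49759 (3720 reads) on the same strand. The library kit does not mark strand, and some members shared exonic bases with genes of the opposite strand. Among others, Pfkp shared 748 with Pitrm1 (5997 reads) and Gpi1 741 with Gm26762 (95 reads). Ankrd37 shared 349 with Lrp2bp (13 reads) and 57 with Ufsp2 (1527 reads).

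Pdk1 gave the clearest difference of the pathway. It encodes pyruvate dehydrogenase kinase 1, which phosphorylates and inhibits pyruvate dehydrogenase and so keeps pyruvate from oxidation, and it is known as a HIF target. Pdk1 (ENSMUSG00000006494.11, chromosome 2, 71873224 to 71903858, plus strand) stood at 345, 356, 336 and 365 CPM in KO and at 533, 544, 581 and 559.7 CPM in WT. The groups were far apart and each was tight. The means were 351 ± 12.8 and 555 ± 20.97 CPM (SD, n = 4 each), so KO stood at 63.2% of WT, a log2 fold change of -0.66 (SE 0.05, edgeR adjusted p = 2.23e-10). No 75-base window of Pdk1 occurred in another annotated gene, and 37205 reads were counted on it.

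The other PDH kinases did not pass. Pdk3 had 16.4 ± 1.02 and 16.7 ± 1.12 CPM (log2 fold change -0.02, edgeR adjusted p = 0.96), and Pdk2 had 11.3 ± 1.42 and 12.7 ± 2.56 CPM (-0.16, adjusted p = 0.67). The share of Pdk1 in the length-scaled sum of Pdk1, Pdk2 and Pdk3 was 81.2, 83.6, 80.2 and 82.5% in KO libraries and 87.2, 86.0, 88.5 and 86.8% in WT libraries. Every KO share lay below every WT share, with means of 81.9% ± 1.47 and 87.1% ± 1.04 (SD, n = 4 each; exact 2-sided permutation p = 0.0286, adjusted p = 0.1). Pdk1 thus remained the main kinase transcript in both groups.

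Ldha, which reduces pyruvate to lactate and regenerates the NAD that glycolysis consumes, had 417, 407, 459.8 and 431 CPM in KO and 399.7, 411, 322 and 383 CPM in WT. Sample_2908_KO lay inside the WT range and Sample_2914_WT was lowest. The means were 429 ± 22.8 and 379 ± 39.8 CPM (log2 fold change 0.18, SE 0.06), with an unadjusted p of 0.00918 and an adjusted p of 0.101 in edgeR. Without Sample_2914_WT the log2 fold change was 0.11.

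**Figure D3:**
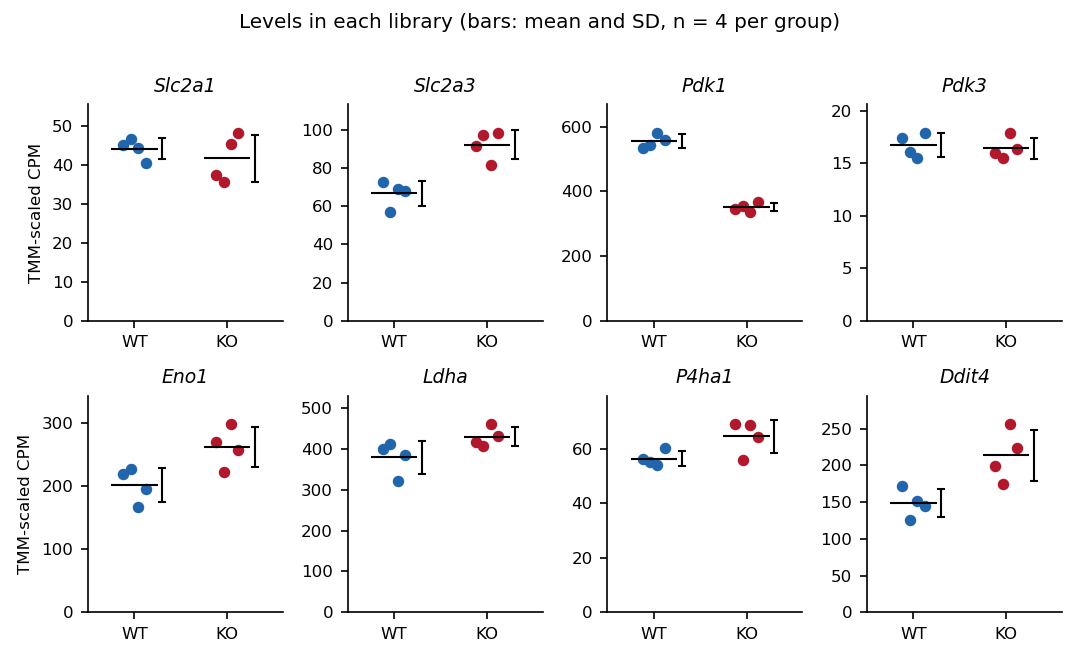
TMM-scaled CPM of 8 genes in each library, with the mean and SD of 4 libraries per group. Slc2a3, Pdk1 and Ddit4 do not overlap between WT and KO, Pdk1 lies at 336 to 365 CPM in KO and 533 to 581 CPM in WT, and the other 5 genes overlap.

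None of the 3 member genes for HIF and its oxygen sensors passed the threshold, where 6.39% of all tested genes passed. Hif3a, a HIF subunit gene of the wider lists, did pass and is described below. Hif1a, the oxygen-regulated alpha subunit, had 99.2, 117, 101 and 101 CPM in KO and 106, 103, 118 and 101 CPM in WT. Of the KO libraries 3 lay below all of WT, the closest by under 0.1 CPM, and Sample_2908_KO lay near the top of WT (log2 fold change -0.04, SE 0.07, edgeR adjusted p = 0.845). HIF is known to be controlled mainly at the protein level, which these data do not measure. Egln1, the main oxygen-sensing prolyl hydroxylase and the highest of this group per length, had 76.8, 74.5, 84.9 and 83.3 CPM in KO and 80.3, 84.2, 65.1 and 73.7 CPM in WT. Its groups overlapped as well (log2 fold change 0.09, SE 0.08, edgeR adjusted p = 0.591). Egln3, a hydroxylase that HIF itself induces, was rare, with 119 reads in all (log2 fold change 0.56, SE 0.40, adjusted p = 0.513). Egln1 made up 45.5% ± 1.32 of the length-scaled sum of Egln1, Egln2 and Egln3 in KO and 43.5% ± 1.76 in WT (exact permutation p = 0.114, adjusted p = 0.16). Most of the rest was Egln2, a hydroxylase gene of the wider lists.

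Of 9 HIF target genes outside glycolysis, all were tested and none passed. Ddit4 (REDD1), an inhibitor of the growth kinase complex mTORC1, came closest (ENSMUSG00000020108.4, chromosome 10, 59949669 to 59951834, minus strand). It had 199, 174, 256 and 224 CPM in KO and 172, 126, 152 and 145 CPM in WT. The groups did not overlap, but the lowest KO and highest WT values were close. The means were 213 ± 34.8 and 149 ± 18.9 CPM (log2 fold change 0.52, SE 0.14), with an unadjusted p of 0.00611 and an adjusted p of 0.0785 in edgeR. The difference passed in 6 of 17 alternatives, among them DESeq2 (adjusted p = 2.84e-05), and its adjusted p ran from 5.53e-10 to 0.2 over all of them.

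P4ha1, the catalytic subunit of collagen prolyl hydroxylase, had 69.1, 56.1, 68.8 and 64.5 CPM in KO and 56.2, 55.3, 54.1 and 60.3 CPM in WT. Sample_2908_KO fell among the WT libraries and the other KO libraries lay above them (log2 fold change 0.19, SE 0.08, unadjusted p = 0.0196 and adjusted p = 0.162 in edgeR). Without Sample_2908_KO the adjusted p was 0.0396, within a range of 0.0396 to 0.532 over the alternatives. The remaining targets did not pass. Kdm3a, a histone demethylase, had 198 ± 12.8 and 202 ± 2.46 CPM (log2 fold change -0.03, edgeR adjusted p = 0.856). Mxi1, a MYC antagonist, had a log2 fold change of -0.13 and Higd1a, a mitochondrial protein, one of 0.09.

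The mitophagy receptors Bnip3 and Bnip3l stood at very different levels. Bnip3l had 116 ± 7.48 CPM in KO and 109 ± 5.74 CPM in WT (log2 fold change 0.10, edgeR adjusted p = 0.471), while Bnip3 had 138 reads in all (-0.44, SE 0.37, adjusted p = 0.599). Bnip3l made up 97.8% ± 0.707 of their length-scaled sum in KO and 96.8% ± 0.724 in WT. Vegfa, the angiogenic growth factor, and Ankrd37, an ankyrin repeat protein, were rare, with 87 and 228 reads, and had log2 fold changes of 0.54 (SE 0.45) and -0.41 (SE 0.30). Windows shared with other genes made up 46.3% of Bnip3, 34.3% of Higd1a and 18.7% of Bnip3l.

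**Figure D4:**
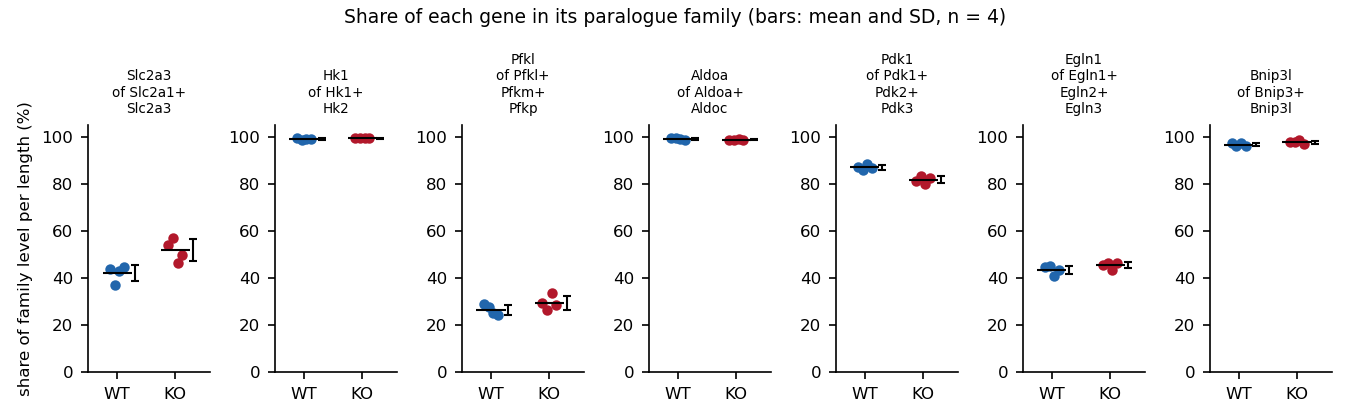
Share of a gene in the length-scaled level of its paralogues, in percent, in each library of WT and KO, with the mean and SD of 4 libraries. Only the first panel (Slc2a3) and the fifth (Pdk1) show groups that do not overlap, and none of the 7 shares passed an adjusted p of 0.05 (0.1 to 0.171). With 70 relabellings, a few fully separated shares could not pass after adjustment, so missing it decides nothing.

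Step by step, the summed length-scaled level of each glycolytic step in KO lay between 96.3% (triose phosphate isomerase) and 129% (enolase) of that in WT, and the PDH kinases stood at 66.2%. Libraries of the groups did not overlap at 2 steps. At the glucose transporters KO had 23.3 to 27.4 CPM per kilobase and WT 20.9 to 22.9. At the PDH kinases (Pdk1 and Pdk3) KO had 50.2 to 53.4 and WT 75.3 to 80.8. These sums are descriptions and were not tested.

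The wider pathway was covered by 6 lists holding 147 other genes, of which 138 had reads and 117 were tested. Of these 1 rose and 3 fell (3.42%, against 6.39% of all tested genes), and the median log2 fold change was 0.02. Glucose transport, glycolysis and pentose phosphate genes had 1 of 24 lower, pyruvate and lactate genes 0 of 19, HIF subunits and regulators 1 of 17 lower, and other HIF targets 1 higher and 1 lower of 25. The MYC, MAX and MLX network had 0 of 9 and the mTORC1 and AMPK genes 0 of 25. At an unadjusted p under 0.05 the counts in the same order were 3 of 24, 0 of 19, 4 of 17, 8 of 25, 1 of 9 and 5 of 25. Counted once each, that is 21 of 117 (17.9%), against 18.0% of all tested genes. Under DESeq2 the 6 lists together had 5 genes past the threshold, and the share of all genes under DESeq2 is not given here.

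Hif3a gave the largest of these changes. It encodes the third HIF alpha subunit, some forms of which restrain HIF. Hif3a (ENSMUSG00000004328.15, chromosome 7, 17031507 to 17062427, minus strand) had 1.10, 0.329, 1.30 and 1.07 CPM in KO and 2.89, 2.16, 3.25 and 3.98 CPM in WT, from 32 and 146 reads. All KO libraries lay below all WT libraries, at low levels in both groups (log2 fold change -1.73, SE 0.38, edgeR adjusted p = 0.00307). P4ha2, another collagen prolyl hydroxylase subunit, had 1.47, 1.10, 1.08 and 1.61 CPM in KO and 3.09, 3.60, 2.27 and 3.29 CPM in WT. It too was low and did not overlap between groups (log2 fold change -1.19, SE 0.34, edgeR adjusted p = 0.0292), and it lost the threshold in 8 of 17 alternatives.

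Bpgm, the red cell mutase that diverts glycolytic intermediates to bisphosphoglycerate, had 18.3, 19.6, 18.7 and 19.7 CPM in KO and 19.7, 29.7, 24.7 and 26.7 CPM in WT. The groups just failed to touch, at Sample_2910_KO and Sample_2911_WT (log2 fold change -0.41, SE 0.12, edgeR adjusted p = 0.033), and the call was lost in 8 of 17 alternatives. Erythroid markers, of which 4 of 8 had reads, were under 1 CPM in sum in every library, and a part of red cells in Bpgm was not tested. Narf, a prelamin-binding protein listed among hypoxia targets, had 60.0, 60.7, 63.1 and 60.8 CPM in KO and 56.5, 45.4, 51.4 and 47.6 CPM in WT. Its KO libraries lay close together and above all of WT (log2 fold change 0.29, SE 0.08, edgeR adjusted p = 0.0221), and 4 of 17 alternatives lost the call.

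**Figure D5:**
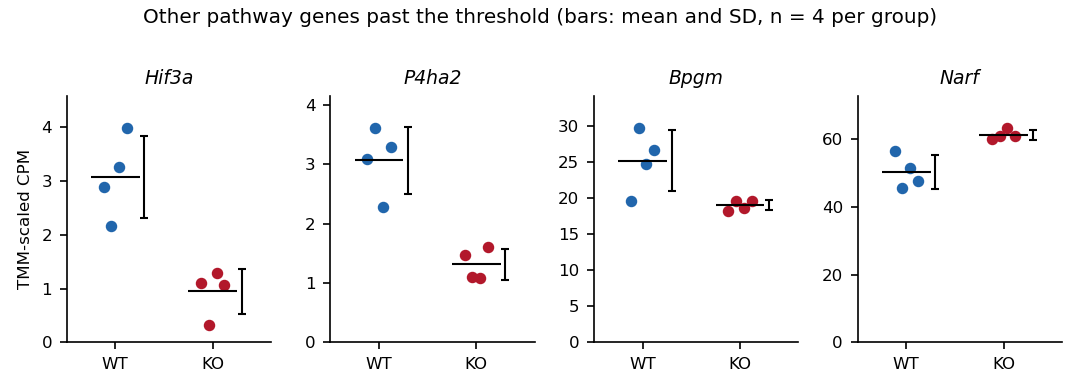
TMM-scaled CPM of the 4 other pathway genes past the threshold, in each library, with the mean and SD of 4 libraries per group. Hif3a, P4ha2 and Bpgm are lower in KO and Narf is higher, and Hif3a and P4ha2 stay under 4 CPM in all libraries.

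Among wider genes that missed the threshold, Cxcr4, a chemokine receptor and HIF target, had the largest difference. It stood at 117, 129.9, 109 and 104 CPM in KO and at 93.8, 30.3, 46.8 and 52.4 CPM in WT. Sample_2911_WT was close to the KO libraries and the other WT libraries were far below them (log2 fold change 1.08, SE 0.31, edgeR adjusted p = 0.118). Without Sample_2911_WT it was 1.37 (adjusted p = 0.00291, the lowest of a range up to 0.281 over the alternatives). This library also had the highest Lyz2, a myeloid gene, at 25.3 CPM. Lyz2 ran from 0.0 to 10.7 CPM in the other WT libraries and from 4.55 to 12.2 CPM in KO. A link between Lyz2 and Cxcr4 was not tested. Plod1, a lysyl hydroxylase, gave a log2 fold change of 0.56 (adjusted p = 0.0556, edgeR). In the lactate group, Ldhb, the other lactate dehydrogenase subunit, had 0.22 and Slc16a1, a lactate carrier, had -0.16, with edgeR adjusted p of 0.356 and 0.559. Myc, a driver of glycolytic genes in activated T cells, stood at 69.9 ± 5.83 CPM in KO and at 77.9 ± 5.72 CPM in WT (log2 fold change -0.15, edgeR adjusted p = 0.296), and its antagonist Mxd1 had 0.24 (adjusted p = 0.175). Vhl, which marks hydroxylated HIF for degradation, had -0.21 and its partner Elob 0.26. Neither passed in edgeR, with adjusted p of 0.295 and 0.165. Rpia, of the pentose phosphate pathway, gave a log2 fold change of 0.25 (adjusted p = 0.129, edgeR), and the phosphoglucomutase annotated as Pgm1 on chromosome 5 one of -0.24 (adjusted p = 0.381). For the AMPK subunit Prkab2 the value was 0.26 (adjusted p = 0.257), and for the mTORC1 component Akt1s1 it was -0.19 (adjusted p = 0.446).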

How the data were processed

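Gene expression was measured by RNA-seq of 8 samples, 4 per group. The TruSeq v2 kit, which does not mark strand, and single reads of 75 bases were used, per the labels' protocols. Per the submitters' processing notes, the build was mm10 and the tools were R 3.5.3, DESeq2 1.22.2, FastQC and CASAVA 1.8.2. Not given in the sources used here are the annotation release, the aligner, the counter and its strand setting. The authors deposited raw read counts for 53465 gene IDs and a normalized signal table of 16418 genes, whose values are those counts divided by 1 size factor per sample.

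The counts entered edgeR 4.0.16 (R 4.3.3) with TMM scaling, filterByExpr (11772 genes kept) and the robust quasi-likelihood F test. Benjamini-Hochberg adjustment ran over all tested genes, with a threshold of 0.05. Levels are TMM-scaled CPM, and length-scaled levels divide by the merged exon length in kilobases from GENCODE M21, which held 99.8% of the IDs. Shares were tested by exact 2-sided permutation over 70 relabellings. A simulation of KO against WT held 11772 genes, of which 200 were changed. The test recovered 86% of genes changed 1.5-fold and 100% at 2-fold, and 6.76% of its calls were unchanged genes. These shares are not given by expression level. They are not taken to hold for genes with few reads, such as Hif3a, P4ha2, Vegfa, Egln3, Bnip3, Aldoc and Ankrd37.

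The members and lists were chosen with earlier results of these data known. The regulatory T cell list was added after Foxp3 had been seen. By rule, genes given library by library are those past the threshold, those at an unadjusted p under 0.05, and the highest of each role per length. Gpi1, Pfkm and Hif1a were added after their values were seen. Of the wider lists, the genes named are the genes past the threshold and, in each list, the 2 others of largest change with a mean of at least 5 CPM. Alternatives were DESeq2 1.42.0, limma-voom and limma-trend (limma 3.58.1), RLE size factors, library size alone, no filter, a filter of 1 CPM in 4 samples, libraries thinned to 5227758 reads, and samples left out. Promoter sequences came from RefSeq (GRCm38.p6). Of the naive CD4 T cell list, 1 gene is not reported here.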

Additional observations from a re-analysis of the deposited data

Results flagged for a closer look

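Among 110 groups of 4 libraries (the genes described above, each in KO and in WT), 6 held a library whose distance from the nearest other was large against the range of the group by Dixon's criterion. Chance flags about 1 in 20 groups. In Hif1a, Sample_2908_KO had 117.4 CPM where the other KO libraries had 99.2 to 101.4 CPM. Higd1a stood at 17.6 CPM in Sample_2909_KO, against 15.2 to 15.5 CPM in the others. For the AMPK subunit Prkab2, Sample_2907_KO had 26.5 CPM and the other KO libraries 21.96 to 22.2 CPM.

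Sample_2913_WT was low for Pfkfb3, at 69.7 CPM against 77.3 to 78.4 CPM in the other WT libraries, and high for Ldhb, at 28.3 CPM against 21.99 to 22.8 CPM. The lactate carrier Slc16a1 was low in Sample_2911_WT, at 22.002 CPM against 29.6 to 30.0 CPM. None of these 6 genes passed the threshold between KO and WT in edgeR, and no cause was tested.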

How the results depend on the processing

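Slc2a3 and Pdk1 kept their direction and their call under all 17 alternatives, at log2 fold changes of 0.40 to 0.55 and -0.68 to -0.64, as did Hif3a at -1.94 to -1.43. The number of members past the threshold was 2 and became 4 with DESeq2 and 5 with no filter, and ran from 2 to 5 when each sample was left out. Members called higher numbered 3 with DESeq2, 4 with no filter, 2 after thinning, 2 without Sample_2911_WT and Sample_2914_WT together, and 1 to 4 when each sample was left out. Wider genes called numbered 1 after thinning and 1 to 6 with each sample left out. Over all genes the main fit gave 752 calls and the alternatives 481 to 895. Leaving out Sample_2911_WT and Sample_2914_WT together gave the lowest, 481, of which 158 were lower in KO. The cause of these changes was not tested.

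The sign turned only where the main log2 fold change was within 0.1 of 0. It did so for Pfkfb3 with library size alone (-0.0070), Aldoa and Pdk3 after thinning (-0.0111 and 0.0872), and Tpi1, Hif1a and Higd1a without the pair (0.0355, 0.0375 and -0.17). With each sample left out, Pfkfb3 ran from -0.0277 to 0.0345, Aldoa from -0.0298 to 0.0706, Tpi1 from -0.105 to 0.0699, Pdk3 from -0.0678 to 0.0185, Hif1a from -0.0992 to 0.0165, Higd1a from -0.0518 to 0.208 and Kdm3a from -0.0518 to 0.0121. No paired analysis was possible because the sample numbers are not shared between the groups. Genes with few reads, such as Hk2, Vegfa, Egln3 and Bnip3, had standard errors too wide, or reads too few, for a moderate change to be called.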
